A study of Arabidopsis thaliana with 15 samples.

Results

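Rosette RNA of Arabidopsis thaliana was sequenced in 15 libraries, and the 12 libraries of the 4 T-DNA insertion lines were taken as 1 group and set against the 3 libraries of wild-type Col-0. The members were chosen by the genotype label alone and by no measured value. The insertion lines were mef37-1, with the insertion in AT5G08305 (MEF37), pgn, with the insertion in AT1G56570 (PGN), at3g50420 and at5g10690, each with 3 libraries numbered 1 to 3, as in Col-0. No allele or agent is labelled as common to the 4 lines, and no plant was treated. The insertion lines in PGN and MEF37 are Salk stocks, and the library titles of at3g50420 and at5g10690 begin with SK. Whether the lines share a T-DNA collection or seed stock, and whether that bears on differences common to them, was not tested. The labels give a day of 16 h, at 20 °C by day and 18 °C by night. The 12 libraries of Col-0, mef37-1, pgn and at3g50420 carry an age of 25.5 days. Libraries 1 and 2 of at5g10690 carry only the growth stage, Boyes 1.14, and the planting and harvest dates of its library 3 lie 41 days apart. Each mutation was represented by 1 insertion line. All 4 lines were compared with the same 3 Col-0 libraries, so a difference shared by the lines and a property of these 3 libraries cannot be told apart. The series description gives 1 biological replicate, so p-values measure the spread between these libraries, and whether they come from independent plants is not settled. Libraries of the same line differed by a chi-square of 22.8 to 122 per degree of freedom over genes, where counting error alone gives about 1.

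A T-DNA insertion line carries a piece of bacterial DNA that interrupts a gene, and each such line is usually compared with the wild type on its own. PGN and MEF37 are E+ pentatricopeptide repeat (PPR) proteins, which are RNA-binding proteins that direct C-to-U editing of organelle transcripts. The pooled comparison asked instead which transcripts differed from Col-0 in the 4 lines as a group, and whether they did so in every line.

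The total count ranged from 19555274 to 30901304 per library (median 26101740). Plastid genes took 60.95% ± 1.26 of the counts in Col-0 (SD, n = 3) and 61.37% ± 1.92 in the insertion lines (SD, n = 12), a difference of 0.414 percentage points (two-sided exact permutation test within replicate number, p = 0.712). Mitochondrial genes took 1.21% ± 0.165 and 1.13% ± 0.180 (SD, n = 3 and 12; same exact test, p = 0.416; both p-values adjusted over the 2 shares, 0.712). Libraries with the same number deviated together, with correlations of 0.174 to 0.753 over 30 pairs, and the number was therefore kept as a block. Leaf markers summed to 7144 to 18276 CPM (counts per 1000000 counts, after TMM scaling) in Col-0 and 4853 to 21750 in the insertion lines. Flower markers reached at most 0.295 CPM and seed markers at most 0.267 CPM in any library, with LFY, CRC, OLEO1, SESA3 and ABI3 at 0 throughout. The root marker PYK10, a beta-glucosidase of roots, had 1356 reads in Col-0 replicate 1, 1730 in mef37-1 replicate 1 and 1796 in pgn replicate 1, and at most 345 in any other library. The other root markers did not follow it, and whether root tissue contributed to these libraries was not tested. IRT1 was at 0 throughout, WOX5 had at most 1 read and CASP1 at most 3 in any library. SCR had 96 to 174 reads and SHR 36 to 96 over all libraries. GL2 was lower in replicate 1 than in replicate 3 of Col-0 (20 and 69), mef37-1 (7 and 24) and pgn (4 and 41).

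The targeted genes were examined first. AT5G10690, the gene interrupted in at5g10690, had 1, 3 and 4 reads in that line and 201 to 319 reads in every other library. PGN had 9, 6 and 16 reads in pgn and 19 to 57 elsewhere. The libraries labelled mef37-1 had 17, 20 and 12 reads of AT5G08305, within the 8 to 31 reads of the others. Likewise, the libraries labelled at3g50420 had 10, 11 and 13 reads of AT3G50420, within the 3 to 29 reads of the others. The counts of these last 2 genes therefore did not distinguish their own lines. Reads were counted over all exons of a gene, so such counts cannot show whether a full-length transcript was made. For the former gene, the paper reports that full-length transcripts were absent from leaves of its mutant and that mitochondrial editing was impaired. None of the 4 targeted genes passed the pooled test, with log2 fold changes of 0.13 for PGN, 0.49 for AT5G08305, -0.15 for AT3G50420 and -0.33 for AT5G10690.

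Transcripts of 2 neighbouring, overlapping genes, MRD1 and HEI10, were lower in the 4 pooled lines than in Col-0, and those of the phosphate transporter gene PHT4;3 were higher. The test was edgeR's quasi-likelihood test with the replicate number as a block, and a gene was called at a Benjamini-Hochberg adjusted p under 0.05. The 12 insertion libraries entered this test as separate units, with no term for line. Of 18358 genes tested, 3 were called (0.0163%), 1 higher (0.00545%) and 2 lower (0.0109%). At an unadjusted p under 0.05 there were 963 genes (5.25%), 439 higher (2.39%) and 524 lower (2.85%). The 12 and the 3 libraries did not overlap for 25 genes (0.136%). The median log2 fold change of all tested genes was -0.0027, and 90 in 100 genes lay between -0.39 and 0.37. Each of the 3 called genes had the same direction in all 4 lines, as 6985 of the 18358 tested genes did. The number of called genes was 11 with DESeq2 and 1 without the block. It was 3, the same genes, with line as a random effect in limma (within-line correlation 0.0253). It ranged from 1 to 5 when 1 library or 1 replicate number was left out. It was 1 when mef37-1, at3g50420 or at5g10690 was left out and 2 when pgn was left out. It was also 1 without the lines mef37-1 and at3g50420 together, whose own genes were not lower in whole-gene counts, a fit chosen after seeing the data. MRD1 was called in each of these fits without lines. The other gene called without pgn was AT1G75945 (adjusted p = 0.0160 in edgeR), which had 0 reads in pgn. HEI10 and PHT4;3 were not called in any fit without 1 line (adjusted p = 0.0919 to 0.210 and 0.162 to 0.230 in edgeR).

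**Figure D1:**
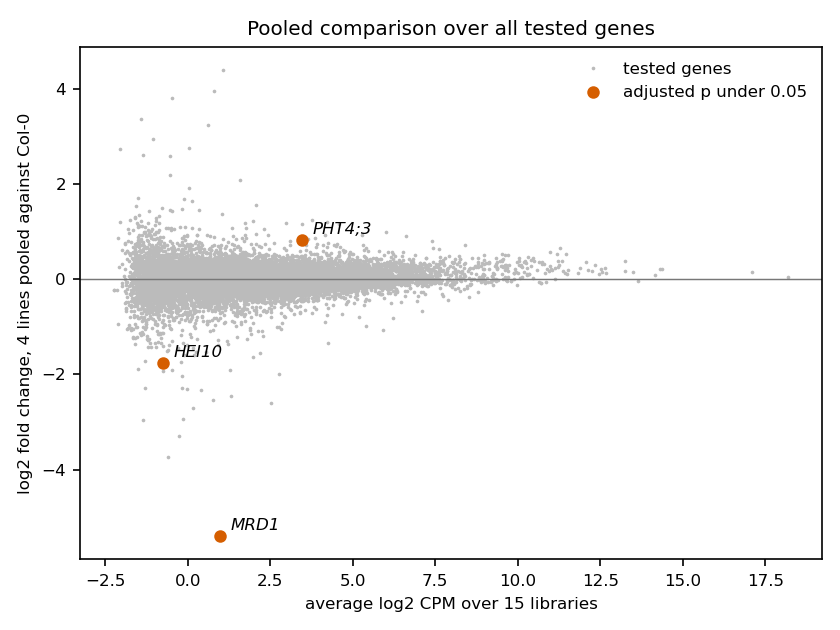
Each point is 1 of the 18358 tested genes, with the average log2 CPM over the 15 libraries on the horizontal axis and the log2 fold change of the 4 pooled lines against Col-0 on the vertical axis. The 3 called genes are labelled, with MRD1 at -5.39, HEI10 at -1.76 and PHT4;3 at 0.82.

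MRD1 (AT1G53480, MTO1 RESPONDING DOWN 1) is named for its lower transcript level in mto1, a mutant that accumulates methionine. It spans 19963047 to 19964712 of chromosome 1 (TAIR10, minus strand) and has 2 exons with 1250 bases. Col-0 replicates 1, 2 and 3 had 232, 224 and 257 reads. In mef37-1 the counts were 0, 7 and 3, and in pgn they were 2, 0 and 5. In at3g50420 they were 4, 16 and 12, and in at5g10690 they were 5, 3 and 5. Every insertion library was thus below every Col-0 library, and libraries at 0 allow up to 3 reads. The level was 8.53 ± 1.53 CPM in Col-0 (SD, n = 3) and 0.199 ± 0.171 CPM in the insertion lines (SD, n = 12; lowest 0, median 0.150, highest 0.621). The pooled log2 fold change was -5.39 (SE 0.342), a 41.9-fold lower level, with an adjusted p of 8.40e-07 in edgeR. Against the same Col-0 libraries, the log2 fold change was -5.98 (SE 0.485) in mef37-1, -6.50 (SE 0.512) in pgn, -4.42 (SE 0.412) in at3g50420 and -5.55 (SE 0.470) in at5g10690. The difference among the 4 lines did not pass the threshold (edgeR, adjusted p = 0.773, unadjusted 0.0421). The highest counts, 16 and 12, were both in at3g50420. MRD1 was called without any 1 of the 15 libraries, with adjusted p-values up to 0.000146 in edgeR.

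The 250 bases before the annotated start of MRD1, at chr1:19964713-19964962 on the minus strand, are shown because this gene carried the largest called difference. They lie within an intron of HEI10. Capitals mark a match to the W-box core TTGAC, searched on both strands (here on the opposite strand), which begins 198 bases before the start.

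MRD1: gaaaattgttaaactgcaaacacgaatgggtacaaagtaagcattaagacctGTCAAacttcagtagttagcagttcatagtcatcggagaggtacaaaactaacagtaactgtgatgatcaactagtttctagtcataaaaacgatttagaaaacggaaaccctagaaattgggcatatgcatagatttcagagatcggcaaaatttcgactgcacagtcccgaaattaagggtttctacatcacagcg

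HEI10 (AT1G53490) encodes a RING-domain protein known for its part in forming meiotic crossovers. It spans 19963267 to 19966952 of chromosome 1 (TAIR10, plus strand), and its 10 exons hold 2252 bases. Its counts were low, with 38, 26 and 33 reads in Col-0 replicates 1, 2 and 3. The 12 insertion libraries had 3 to 19 reads (median 8). The highest insertion counts, 19, 18 and 14, were those of the third replicates of at5g10690, at3g50420 and pgn, and no insertion library reached a Col-0 library. The level was 1.14 ± 0.0315 CPM in Col-0 (SD, n = 3) and 0.343 ± 0.140 CPM in the insertion lines (SD, n = 12). The pooled log2 fold change was -1.76 (SE 0.258), a 3.40-fold lower level (edgeR, adjusted p = 0.0363). By line it was -2.16 (SE 0.389) in mef37-1, -1.72 (SE 0.372) in pgn, -1.64 (SE 0.368) in at3g50420 and -1.59 (SE 0.371) in at5g10690. The call rests on all libraries together. It was kept without Col-0 replicate 3 (adjusted p = 0.0469), mef37-1 replicate 2 (0.0348) or at5g10690 replicate 3 (0.0308), and it was lost without each of the 12 other libraries in edgeR (adjusted p = 0.0593 to 0.794). The log2 fold change stayed between -2.07 and -1.51 in these fits.

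MRD1 and HEI10 overlap head to head on opposite strands, with 1445 bases between their annotated starts. They share 922 exonic bases. The reads were counted by strand, so a read on the strand of MRD1 was not counted on HEI10. How often a read was given the wrong strand was not tested. The noncoding gene AT1G07887 covers 839 of these bases on the strand of HEI10, and a read over exons of both is given to neither. This leaves 1413 exonic bases from which HEI10 could be counted alone, 83 of them opposite an exon of MRD1. AT1G07887 had 1 read in Col-0 replicate 1 and 0 in every other library. The neighbours on either side were looked up after these values were seen. MSL4 (AT1G53470), a mechanosensitive channel-like protein, had 43 to 59 reads in Col-0 and 28 to 81 in the insertion lines (log2 fold change 0.13, SE 0.171). MUM4 (AT1G53500), an enzyme of seed mucilage synthesis, had 670 to 866 reads in Col-0 and 427 to 1263 in the insertion lines (log2 fold change 0.11, SE 0.105). Both neighbours overlapped between the groups and neither was called (edgeR, adjusted p = 0.939 and 0.893).

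**Figure D2:**
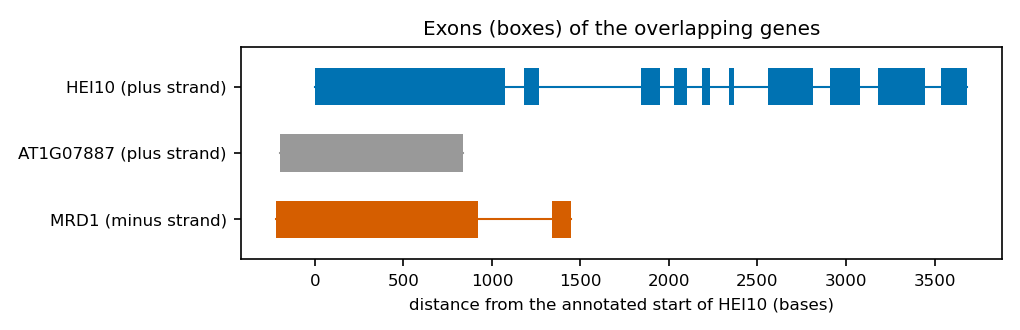
Exons (boxes) and introns (lines) of HEI10, AT1G07887 and MRD1, drawn to scale as the distance in bases from the annotated start of HEI10. The first exon of HEI10 covers most of the long exon of MRD1, and AT1G07887 lies over both.

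PHT4;3 (AT3G46980) is a member of the PHT4 family of phosphate transporters. The gene spans 17306599 to 17310068 of chromosome 3 (TAIR10, minus strand). Col-0 replicates 1, 2 and 3 had 8.58, 4.57 and 7.45 CPM (285, 102 and 223 reads). The 12 insertion libraries had 11.1 to 13.2 CPM, with a median of 11.9 (222 to 442 reads). Every insertion library was above every Col-0 library, and the spread was wider in Col-0 (6.87 ± 2.07 CPM, SD, n = 3) than in the insertion lines (12.1 ± 0.734 CPM, SD, n = 12). The pooled log2 fold change was 0.82 (SE 0.122), a 1.76-fold higher level (edgeR, adjusted p = 0.0363). The 4 lines lay close together, at 0.79 in mef37-1, 0.82 in pgn, 0.81 in at3g50420 and 0.84 in at5g10690 (SE 0.162 each; difference among lines, adjusted p = 0.997 in edgeR). Col-0 replicate 2 was the lowest library, and without it the log2 fold change was 0.60 and the adjusted p 0.179 in edgeR. The call was kept without Col-0 replicate 1 (0.00239) or at5g10690 replicate 3 (0.0375), and it was lost without each of the 13 other libraries (adjusted p = 0.0592 to 0.291). The 3 tested phosphate genes of the nitrate and phosphate list were not called: the root phosphate transporter gene PHT1;4 had a log2 fold change of -0.05, the phosphate sensor gene SPX1 0.10 and the phosphate exporter gene PHO1 0.13.

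The window of the same length before the start of this transporter gene, at chr3:17310069-17310318 on the minus strand, is shown for comparison with that of MRD1, since it belongs to the only called gene with a higher level. None of the 4 motifs searched was found in it, so it has no capitals.

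PHT4;3: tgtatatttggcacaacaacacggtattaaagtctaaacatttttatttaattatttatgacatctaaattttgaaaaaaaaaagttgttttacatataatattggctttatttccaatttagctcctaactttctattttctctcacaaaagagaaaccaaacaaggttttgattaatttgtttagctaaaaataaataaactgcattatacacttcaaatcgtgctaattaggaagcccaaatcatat

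The same window was searched on both strands in the 20 genes with the smallest p. The motifs were the G-box CACGTG, the W-box core TTGAC, the evening element AAAATATCT and the ABRE core ACGTGG, of which the first and the last can overlap. TTGAC was found in 10 of the 20 windows, against 44.3% of 32546 windows of the same length. CACGTG was found in 2 windows, those of ELIP1 and AT3G11210, against 5.90% of all. ACGTGG was in 1, that of AT3G11210, where it overlapped the G-box (7.60% of all), and AAAATATCT was in 1, that of MAF5, 168 bases before the start (2.23% of all). HEI10 had no match.

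**Figure D3:**
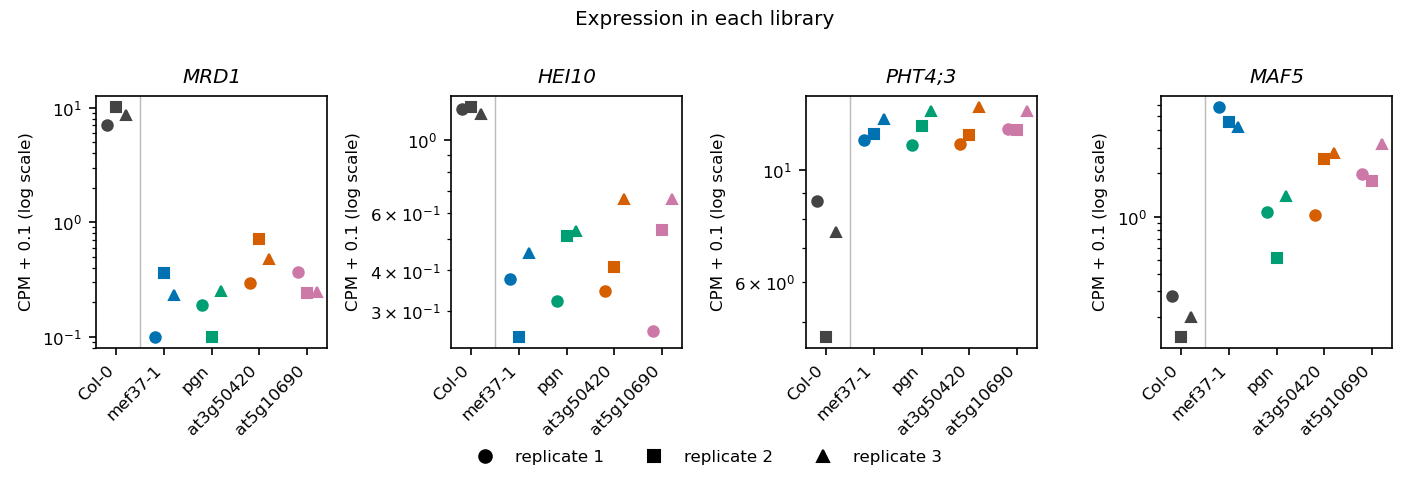
Expression of MRD1, HEI10, PHT4;3 and MAF5 in each library, as CPM plus 0.1 on a logarithmic axis, by line, with 1 symbol per replicate number. The insertion libraries sit below all Col-0 libraries for MRD1 and HEI10 and above them for PHT4;3 and MAF5, and the scale differs between panels.

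MAF5 (AT5G65080) had the largest positive fold change of the 20 genes with the smallest p, and did not pass the threshold. It belongs to the FLC clade of MADS-box genes, repressors of flowering, and lies beside MAF4, MAF3 and MAF2 on chromosome 5. Col-0 replicates 1, 2 and 3 had 6, 1 and 3 reads. The counts were 145, 118 and 94 in mef37-1, and 22, 9 and 42 in pgn. They were 19, 62 and 86 in at3g50420, and 35, 35 and 106 in at5g10690. All 12 insertion libraries were above all 3 Col-0 libraries. The level ranged from 0.411 to 5.71 CPM in the insertion lines (median 2.15), against 0.0448 to 0.181 CPM in Col-0. The pooled log2 fold change was 4.38 (SE 0.903, edgeR, adjusted p = 0.412). By line it was 5.35 (SE 0.514) in mef37-1, 2.90 (SE 0.595) in pgn, 4.09 (SE 0.545) in at3g50420 and 4.21 (SE 0.542) in at5g10690. The unadjusted p for a difference among the lines was 0.000227 (adjusted 0.475). When each line had its own term and the mean of the 4 was tested, MAF5 was called (log2 fold change 4.14, adjusted p = 0.0127 in edgeR). That setting also called AT5G10690, which was low in a single line (adjusted p = 0.0129 in edgeR), so it did not select shared differences alone. HEI10 and PHT4;3 were not called in it (adjusted p = 0.0740 and 0.132 in edgeR). DESeq2 and the likelihood ratio test also called MAF5 (adjusted p = 0.000181 and 0.000256).

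MAF4 (AT5G65070), its neighbour, had 17, 13 and 12 reads in Col-0. Its counts were 76, 63 and 51 in mef37-1 and 11 to 57 in the 9 other insertion libraries. In CPM, mef37-1 (2.25 to 2.99) and at5g10690 (0.863 to 1.68) lay wholly above Col-0 (0.401 to 0.582), while pgn and at3g50420 overlapped with it. The pooled log2 fold change was 1.45 (SE 0.552, edgeR, adjusted p = 0.877). MAF3 and MAF2 had log2 fold changes of -0.13 (SE 0.148) and -0.04 (SE 0.189). FLC itself had -0.57 (SE 0.587). Of the 13 genes of the FLC clade and flowering list, 10 were tested and 0 were called, 4 had positive and 6 negative fold changes, and 2 had an unadjusted p under 0.05, MAF4 and MAF5 (edgeR). Their median was -0.03.

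Of the 20 genes with the smallest p, 14 had a lower mean in the insertion lines and 6 a higher one, and the 17 beyond the called genes had adjusted p-values from 0.182 to 0.877 in edgeR. They were picked for their p in this comparison, so their values are a description. The groups did not overlap for 9 of the 20, against 0.136% of all tested genes, which is part of how they were picked. AT4G14548, a noncoding RNA gene, was the first below the threshold. It had 2.498, 2.598 and 3.174 CPM in Col-0 and 0.937 to 1.74 CPM (median 1.42) in the insertion lines, without overlap (log2 fold change -0.97, SE 0.172, adjusted p = 0.182 in edgeR).

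Besides MAF5, 4 of these genes encode regulators of transcription. NAC3 (AT3G29035, also ORS1), a senescence-associated NAC factor, had 0.933, 0.761 and 5.01 CPM in Col-0 and 0.349 to 1.26 CPM in the insertion lines, so that the groups overlapped and Col-0 replicate 3 stood apart. Within the same number, all 12 insertion libraries were below Col-0, which rests on only 3 Col-0 libraries (log2 fold change -1.45, SE 0.268, adjusted p = 0.226 in edgeR). Without Col-0 replicate 3 the log2 fold change of NAC3 was -0.69. WRKY26 had 2.24 to 5.33 CPM in Col-0 and 1.096 to 3.31 CPM in the insertion lines (log2 fold change -0.88). SCL3, a GRAS protein of gibberellin signalling, had 4.34 to 8.22 CPM and 3.01 to 5.83 CPM (log2 fold change -0.48). MYB60, a regulator of stomatal opening expressed in guard cells, had 2.32 to 3.14 CPM in Col-0 and 2.52 to 5.31 CPM in the insertion lines (log2 fold change 0.51, SE 0.132). None of these 4 genes passed the threshold in the main test. NAC3 and WRKY26 were called by DESeq2 (adjusted p = 0.0333 and 0.0464) and by the likelihood ratio test (adjusted p = 0.00318 and 0.00970).

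A further 6 genes encode enzymes, a transporter and other proteins of metabolism. SUFE2, a SufE-type protein of iron-sulfur cluster assembly, had 3.79, 2.87 and 12.4 CPM in Col-0 and 1.34 to 6.04 CPM in the insertion lines, and replicate 3 was the highest in every line (log2 fold change -1.03, SE 0.195). AT1G22550, annotated as a major facilitator superfamily protein, had 4.78 to 8.51 CPM in Col-0 and 0.943 to 4.06 CPM in the insertion lines, without overlap (log2 fold change -1.07, SE 0.212, adjusted p = 0.327 in edgeR). DHDPS1, an enzyme of lysine synthesis, had 4.41 to 6.49 CPM and 3.22 to 4.69 CPM (log2 fold change -0.42). SCPL9, a serine carboxypeptidase-like protein, had 4.21 to 6.83 CPM in Col-0 and 4.86 to 15.0 CPM in the insertion lines (log2 fold change 0.80). AT3G11210, annotated as an SGNH hydrolase-type esterase, had 1.96 to 2.61 CPM and 2.30 to 4.31 CPM (log2 fold change 0.55). AT1G02470, annotated as a polyketide cyclase-like protein, had 0.358 to 5.45 CPM in Col-0 and 0.228 to 2.68 CPM in the insertion lines (log2 fold change -1.53, SE 0.366). Of these 6 genes, AT1G22550 alone had groups that did not overlap.

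The remaining 5 genes had other roles. RAE1, an mRNA export factor, had 8.33 to 9.24 CPM in Col-0 and 5.64 to 7.84 CPM in the insertion lines, a small difference without overlap (log2 fold change -0.33, SE 0.0807). ELIP1, an early light-induced protein, had 0.403 to 1.77 CPM and 0.272 to 1.06 CPM (log2 fold change -1.03, SE 0.247). RPL3B, a ribosomal protein L3, had 15.3, 21.1 and 4.11 CPM in Col-0 and 3.19 to 13.0 CPM in the insertion lines. It has a close paralog, and reads with several positions were counted at each, so its value is uncertain. Its log2 fold change was -0.56 (SE 0.123, adjusted p = 0.572 in edgeR), and 10 of 12 insertion libraries were below the Col-0 library of the same number. RPL3B was called in 2 of 18 fits that left out libraries, those without replicate 3 (log2 fold change -0.78, adjusted p = 0.00948 in edgeR) and without Col-0 replicate 3 (adjusted p = 0.0469). AT1G27030, an uncharacterised protein, had 7.88 to 9.15 CPM in Col-0 and 12.6 to 28.7 CPM in the insertion lines, without overlap, and the highest value was that of at5g10690 replicate 3. Its log2 fold change was 0.86 (SE 0.194, adjusted p = 0.689 in edgeR). Of 18 fits that left out libraries, 1 called it, that without at5g10690 replicate 3 (log2 fold change 0.75, adjusted p = 0.0264 in edgeR). AT2G07702 had 0.802 to 1.14 CPM and 0.312 to 0.701 CPM (log2 fold change -0.87), without overlap, and lies in a stretch of chromosome 2 that resembles the mitochondrial genome, so its reads could have come from either.

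**Figure D4:**
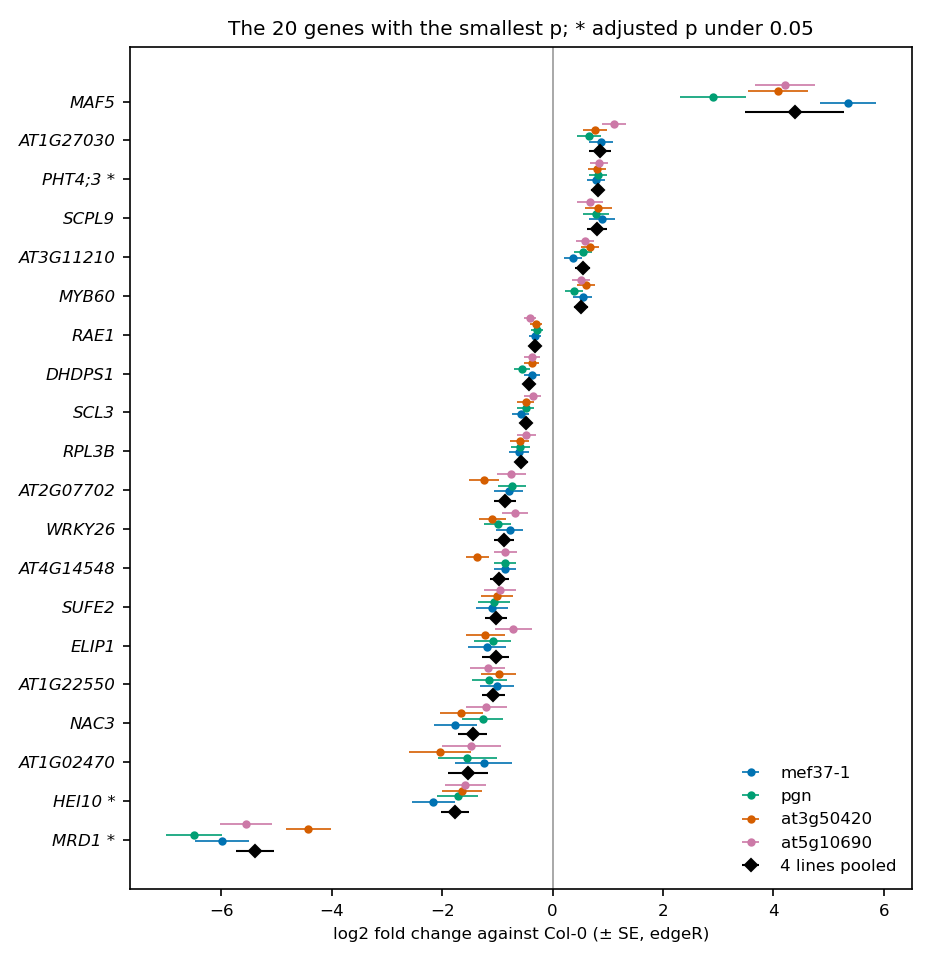
Log2 fold changes against Col-0 of the 20 genes with the smallest p, with the 4 lines pooled (black diamonds) and for each line (coloured points), all with the SE of the edgeR fit. The lines share their 3 Col-0 libraries; they lie on the same side of 0 for all 20 genes, from -5.39 (MRD1) to 4.38 (MAF5) when pooled, and the called genes carry a star.

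AT1G12845, an uncharacterised protein gene that was chosen with its values known, had 4.91 to 5.96 CPM in Col-0 and 6.01 to 14.5 CPM in the insertion lines, without overlap (log2 fold change 0.72, SE 0.232, adjusted p = 0.877 in edgeR). AT1G14250, a nucleoside phosphatase family gene chosen likewise, had 72.05, 38.9 and 8.22 CPM in Col-0 and 19.8 to 203.2 CPM in the insertion lines, and the groups overlapped (log2 fold change 0.98, SE 0.432). Neither passed the threshold.

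None of the other gene lists held a called gene in the pooled test (edgeR). Genes of light harvesting and carbon fixation, which encode the antenna proteins of the photosystems, Rubisco small subunit and Rubisco activase, had positive fold changes in 15 of 15 cases, with a median of 0.39 against -0.0027 over all genes and a range of 0.23 to 0.56. None of the 15 had an unadjusted p under 0.05. LHCB3 had the largest value, 0.56 (SE 0.305). The 5 leaf markers, 3 of them in this list, likewise had positive values, with a median of 0.37. By replicate number, the leaf marker sum was 13632 CPM in Col-0 replicate 1 and 15997 to 21736 CPM in the insertion lines. In replicate 2 it was 18276 CPM against 17720 to 21750 CPM. In replicate 3 it was 7144 CPM in Col-0 and 14891 CPM in mef37-1, 10068 CPM in pgn, 13003 CPM in at3g50420 and 4853 CPM in at5g10690. In every line replicate 3 had the lowest sum. The part of this sum in the pooled fold changes was not tested. Of the 124 tested plastid genes, 115 had positive values (median 0.16, 3 with an unadjusted p under 0.05), and of the 46 tested mitochondrial genes, 28 had negative ones (median -0.02, 0 with an unadjusted p under 0.05).

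The 5 guard cell markers all had positive fold changes, with a median of 0.32. FAMA, a transcription factor of the stomatal lineage, had 5.96 to 8.12 CPM in Col-0 and 7.18 to 11.8 CPM in the insertion lines (log2 fold change 0.32, SE 0.109, adjusted p = 0.877 in edgeR). KAT1, a potassium channel of guard cells, had a log2 fold change of 0.30 (SE 0.128). The summed level of these markers was 32.8 to 45.7 CPM in Col-0 and 34.1 to 72.04 CPM in the insertion lines. More cells of a type and more RNA per cell cannot be told apart in such samples.

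None of the tested genes of the hormone and stress lists passed the threshold. Of 12 jasmonate genes, which include synthesis enzymes such as AOS and the JAZ repressors, 11 had positive values (median 0.28, PDF1.2 at -0.98). Of 15 genes of salicylic acid defence, 12 had negative values (median -0.22, with PR5 at -1.07 and ALD1 at 1.08). Neither list held a gene with an unadjusted p under 0.05. The 10 cold response genes were divided, 5 and 5, with a median of -0.08. Among them COR47, a dehydrin, had 240.8 to 366.5 CPM in Col-0 and 120.9 to 355.8 CPM in the insertion lines (log2 fold change -0.43, SE 0.176), and CBF3 (DREB1A), an activator of cold-induced genes, -0.41 (SE 0.163). CBF3 had 2.98, 2.51 and 12.6 CPM in Col-0, and without Col-0 replicate 3 its log2 fold change was -0.11 and that of COR47 -0.23. Of 8 tested genes of the abscisic acid and dehydration list, 6 had negative values (median -0.11). ERD10, another dehydrin, had a log2 fold change of -0.36 (SE 0.147, unadjusted p = 0.0263 and adjusted 0.877 in edgeR). It was below the Col-0 library of the same number in 12 of 12 libraries, comparisons that rest on only 3 Col-0 libraries. All 6 tested heat shock genes had positive values (median 0.07). The heat shock factor gene HSFA2 had 0, 0 and 2 reads in Col-0, and among the insertion lines it had 9 to 25 reads in the 4 replicate 3 libraries, 2 in mef37-1 replicate 1 and 0 in the 7 others.

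The list of mitochondrial dysfunction genes, which respond to signals from impaired mitochondria, had 9 tested members, 6 with negative values, and a median of -0.07. AOX1A, the alternative oxidase gene commonly used to read out this response, had a log2 fold change of -0.24 (SE 0.135), and NDB2, an alternative NADH dehydrogenase, -0.32 (SE 0.130, unadjusted p = 0.0262 and adjusted 0.877 in edgeR). NDB2 had 17.3 to 34.6 CPM in Col-0 and 12.8 to 27.0 CPM in the insertion lines, so the groups overlapped. The lists of the circadian clock (13 tested, median 0.03), copper and superoxide dismutase (9 tested, median 0.07), RNA silencing (15 tested, median 0.02), anthocyanin (8 tested, median -0.08) and nitrate and phosphate (7 tested, median 0.08) held no gene with an unadjusted p under 0.05.

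A test among the 4 lines asked which genes were not shared evenly by the pooled group. It called 5 genes (0.0272%), and 968 had an unadjusted p under 0.05 (5.27%). Of the 5, AT5G10690 and AT3G50430 were low in a single line. AT3G50430, annotated as a golgin and adjacent to AT3G50420, had 9, 8 and 34 reads in at3g50420 and 74 to 215 reads elsewhere. NUDT24, a Nudix hydrolase, had 22, 73, 35 and 725 reads in replicate 3 of mef37-1, pgn, at3g50420 and at5g10690, 179 in Col-0 replicate 3, and at most 1 read in the 10 other libraries. MYB90 (PAP2), an activator of anthocyanin genes, had 14, 107, 46 and 516 reads in the same 4 libraries, 189 in Col-0 replicate 3, and at most 6 elsewhere. For both genes the 725 and 516 reads belong to the library with the 41-day interval. AT1G75945 had 43 to 92 reads in mef37-1, at3g50420 and at5g10690, 0 in all 3 pgn libraries, and 0, 1 and 10 in Col-0. The log2 fold changes of these genes in the pooled test ran from -0.44 (MYB90) to 3.94 (AT1G75945), and none was called.

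**Figure D5:**
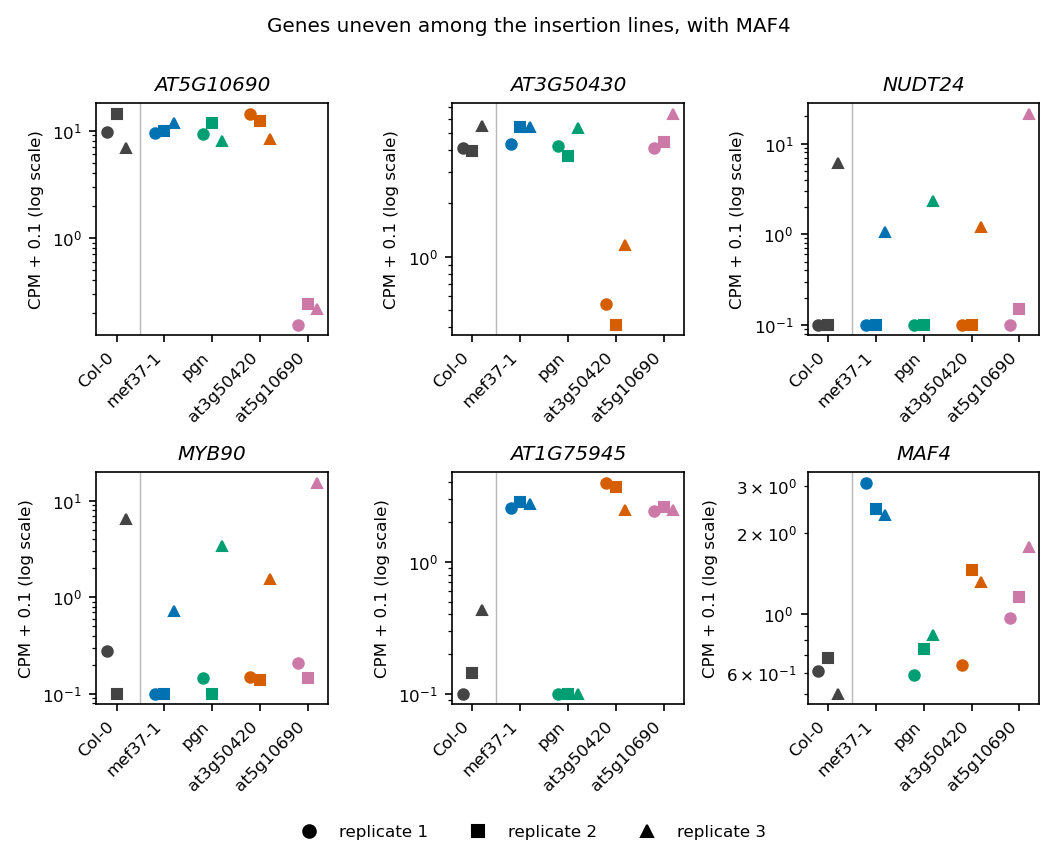
Expression of the 5 genes called in the test among the insertion lines, and of MAF4, in each library, as CPM plus 0.1 on a logarithmic axis, with 1 symbol per replicate number. AT5G10690 and AT3G50430 are low in 1 line, AT1G75945 is at 0 in pgn, and NUDT24 and MYB90 are high in replicate 3 of every line, Col-0 included.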

How the data were processed

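The authors sequenced stranded total RNA, depleted of ribosomal RNA, as single-end reads of 75 nt, mapped it with STAR 2.7.0c without spliced alignments, keeping all best positions, and deposited raw counts, in which featureCounts 1.5.0-p2 assigned reads to the exons of each gene by strand, multi-mapping reads included. The counts of 32733 genes were analysed with edgeR 4.0.16 under R 4.3.3 (TMM scaling, filterByExpr with the 5 lines as groups, quasi-likelihood test, replicate number as a block, Benjamini-Hochberg adjustment). The numbers come from the sample titles and, with all pair correlations above 0.1, were taken as pairing. CPM values are scaled by the TMM library sizes. Of 32548 nuclear genes matched to RefSeq TAIR10.1, 32532 had the same start and end as in the files, and sequences of 250 bases were read from that assembly. Named genes were the called ones, those next by p up to 20, the targeted genes, earlier named genes and list members with an unadjusted p under 0.05; genes called among the lines, the neighbours of MRD1 and the genes named under other observations were added after their values were seen. Members and lists were chosen with earlier results of these data known. DESeq2 1.42.0, the likelihood ratio test, limma 3.58.1 with line as a random effect, other filters and normalizations and leaving out libraries, replicate numbers or lines were tried. The test was checked on simulated data, where 0 genes were called with no change put in. With a log2 change of 1 in 200 genes, 151 of these were called, with 6 false calls. The simulation held no effect of replicate number, and its pooled part no differences between lines, so neither the block nor pooling of uneven lines was checked. The floor of 3 reads covers counting error only, while each SE comes from the edgeR fit and includes the spread between libraries. Some count columns carry working names, and samples were taken from the labels.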

Additional observations from a re-analysis of the deposited data

Results flagged for a closer look

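In 5 genes the 4 insertion lines differed among themselves by a test of the difference itself (edgeR quasi-likelihood F test with the replicate block, adjusted over 18358 genes). The adjusted p was 3.32e-05 for AT5G10690, with 1, 3 and 4 reads in its own line. It was 0.000868 for AT3G50430, which was low in at3g50420. It was 0.00144 for NUDT24 (AT5G19470) and 0.00296 for MYB90 (AT1G66390), both with their highest count in at5g10690 replicate 3. It was 0.0497 for AT1G75945, which was at 0 in pgn. Without at5g10690 replicate 3 the same test called 2 genes, both among these 5.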

How the results depend on the processing

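MRD1 was called in all 32 alternatives in which it was tested. HEI10 was called in 9 of 32 and PHT4;3 in 9 of 33, always in the same direction. With the replicate numbers as pairs, the pooled comparison called 3 genes and the test among lines 5; without the replicate block each called 1. A minimum of 10 counts in every library, which removed MRD1 and HEI10 from the test, left 0 genes in the pooled edgeR test, with 841 at an unadjusted p under 0.05, and 0 among lines, with 927. With no filter on low counts, 4 pooled genes were called. The gene added to the 3 was LTP2 (AT2G38530), with a log2 fold change of -4.52 (adjusted p = 0.0250 in edgeR). The likelihood ratio test called 11 and 15 genes and DESeq2 11 and 9. In the pooled comparison both added AT4G14548, NAC3, SUFE2, AT1G22550, MAF5, WRKY26 and AT1G27030 to the 3 genes. The likelihood ratio test also called RPL3B, and DESeq2 also called SCPL9. An adjusted p under 0.01 left 1 pooled gene. Without mef37-1, without at3g50420, without at5g10690, and, chosen after seeing the data, without both mef37-1 and at3g50420, 1 gene was called. The mean of the line coefficients called 3 genes, MRD1, MAF5 and AT5G10690. Without 1 library or 1 replicate number, 1 to 5 genes were called in the pooled test and 2 to 15 among lines; the 5 came without at5g10690 replicate 3 and the 15 without replicate 2. The cause was not tested. The difference in plastid share ranged from -0.774 percentage points, without Col-0 replicate 1 (exact p = 0.52), to 1.04 when 1 library was left out. Of the 38 genes whose fold change was refitted under the alternatives, PGN, AT3G50420, AT5G10690, AT3G50430, MYB90 and NUDT24, of which only AT5G10690 was called under any alternative, changed sign in at least 1 alternative and the other 32 in none. The depth limits HEI10, with 3 to 38 reads, and MAF5, with 1 to 6 reads in Col-0; the 3 Col-0 libraries limit every value.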

Other observations

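A few genes were high in Col-0 replicate 1 alone; they were picked after the fits were seen, and no test is given for them. AT2G38380, annotated as a peroxidase, had 274 reads in that library, 0 in the other Col-0 libraries and at most 24 in the insertion lines. AT2G01610, annotated as a pectin methylesterase inhibitor family protein, had 391, 2 and 10 reads in Col-0 replicates 1, 2 and 3 and 3 to 30 in the insertion lines. AT2G19990 (PR-1-LIKE) had 249, 1 and 4 reads in Col-0 and 2 to 12 in the insertion lines. PYK10 was also high in this library, as it was in replicate 1 of mef37-1 and pgn, while these 3 genes had at most 30 reads in any insertion library.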
